A study of Mus musculus with 14 samples.

Results

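Cholangiocyte-derived ductal cells were compared with hepatocytes of chronically injured mouse liver in 9 of the 14 RNA-seq libraries of the series. The columns were chosen by their names: 5 ductal libraries (numbered 118, 219, 220, 225 and 611) and 4 hepatocyte libraries (118, 225, 248 and 611). All groups came from C57BL/6 mice that had received 0.1% DDC, a compound that disturbs haem synthesis and injures bile ducts, over 5 to 8 weeks, so no uninjured liver is among them. The mice were chimeric adults in which a red fluorescent protein marked mature hepatocytes, and livers were digested with collagenase. The ductal cells, called host cells and oval cells in the labels, were sorted as positive for the ductal surface antigen MIC1-1C3 and negative for CD11b, CD26, CD31, CD45 and mTomato, with low side scatter. The labels call the other population hepatocytes and give neither its gate nor its marker status. Absence of the marker, not a mark of their own, defines the ductal cells as cholangiocyte-derived, and the share of unmarked host hepatocytes is not given in the sources used here. Host and donor origin therefore cannot be told apart from cell type where the hepatocytes were donor cells. Nothing states that libraries are separate animals, so p-values measure the spread between these samples, which may be technical.

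The liver holds 2 epithelia. Hepatocytes make plasma proteins and bile acids and carry out detoxification and most intermediary metabolism, while cholangiocytes line the bile ducts, form a tight barrier and add bicarbonate and water to bile. Both descend from a common embryonic precursor, and in chronic biliary injury ductal cells multiply in a ductular reaction. Ductal cells are commonly told from hepatocytes by the cytokeratins Krt19 and Krt7, the adhesion molecule Epcam and the transcription factor Sox9, and hepatocytes from ductal cells by Alb, urea cycle enzymes and cytochromes P450.

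Values are RPKM, reads scaled by transcript length and by library size, and a fold change is the difference of mean log2(RPKM + 1), ductal minus hepatocyte, with its standard error, where a ratio compares mean RPKM. The depth estimated for these 9 libraries was 20.95 to 25.55 (in units of 1e6 reads, a rough estimate from the steps between low values). At 1 RPKM or more stood 12342 ± 153 genes (SD, n = 5) in ductal cells and 10552 ± 303 (n = 4) in hepatocytes, with no overlap (exact permutation test, two-sided, p = 0.00794, the smallest that 126 arrangements allow). The 10 most abundant genes held 11.9 ± 0.207% of all RPKM in ductal cells and 19.3 ± 1.84% in hepatocytes (exact permutation p = 0.00794). Across the 12638 tested genes, Spearman's rho between libraries was 0.966 to 0.993 within ductal cells, 0.93 to 0.996 within hepatocytes and 0.628 to 0.697 between them, as a description.

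The series' design text gives 3 hepatocyte samples, where 4 were deposited, and does not state which is extra. Hepatocyte library 118 stood apart from the other hepatocytes before any comparison. It correlated with them at 0.93 to 0.932 where they correlated with each other at 0.984 to 0.996. Its macrophage, endothelial, stellate and ductal markers were higher, with Krt19 at 10.4 RPKM against 0.09, 0.31 and 0.67 in libraries 225, 248 and 611. Where leaving it out moved a change by over 1.5 times, the value without it is given beside the result. Among ductal libraries, 219 was lowest in macrophage and endothelial markers and 118 and 220 were highest in fibroblast collagens.

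Ductal cells and hepatocytes differed in most of what they expressed. Of the 12638 genes tested, which reached 1 RPKM in 4 or more of the 14 libraries, 8475 were higher and 2195 lower in ductal cells at an adjusted p under 0.05 (limma, Benjamini-Hochberg), which is 67.1% and 17.4% and together 84.4% of the genes tested. A call alone therefore separates little, so lists below are also read by a change of at least 4-fold, which 1792 genes (14.2%) passed upward and 663 (5.25%) downward. The median gene was 0.76 higher on the log2 scale. Rescaling by median ratios, which assumes that the typical gene did not change, moved that median to 0.06 and gave 5132 genes higher (40.6%) and 4798 lower (38.0%), as the plot of fold changes on both scales shows. Of the genes called at least 4-fold, 1788 of 1792 higher and 663 of 663 lower were still called after rescaling. Quantile normalization gave 4891 higher and 4769 lower. The direction of a change under about 2-fold, and at times of a somewhat larger one, can thus depend on the scale. Among the named genes Arg2, 1.255 higher on the log2 scale as deposited, changed sign under quantile normalization.

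**Figure D1:**
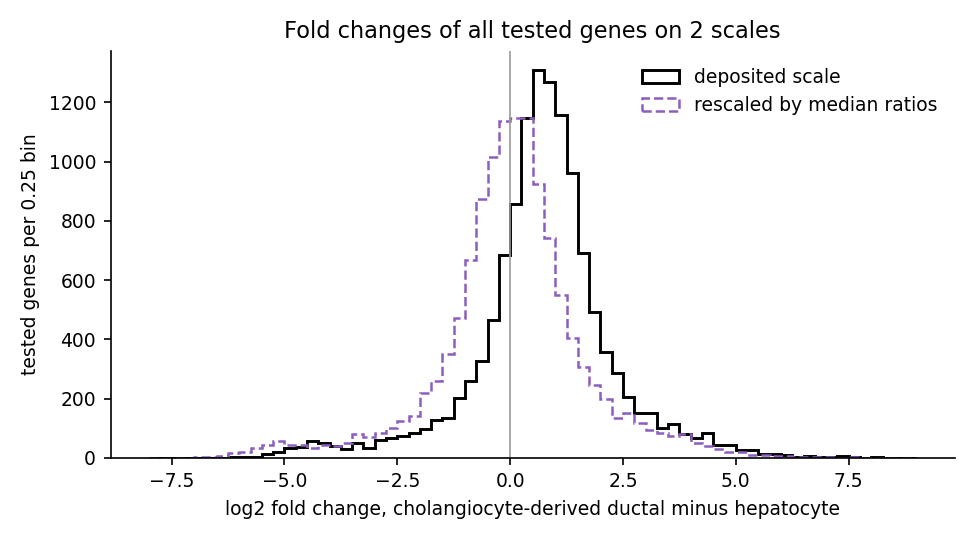
Distribution of log2 fold changes (horizontal axis, ductal minus hepatocyte) over the 12638 tested genes, as the number of genes per bin (vertical axis), on the deposited scale (solid line) and after rescaling by median ratios (dashed line). The bulk of genes sits above 0 with a median of 0.76 on the deposited scale and at 0.06 after rescaling, while the long tails on either side stay outside 0 on both.

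The main ductal and hepatocyte markers separated the libraries by their labels. Krt19, an intermediate filament of simple ductal epithelium (NM_008471, chromosome 11, 100002126 to 100007233, minus strand, mm9), measured 694, 588, 667, 743 and 598 RPKM in ductal libraries 118, 219, 220, 225 and 611. In hepatocyte libraries 118, 225, 248 and 611 it measured 10.4, 0.09, 0.31 and 0.67. All ductal values lay far above all hepatocyte values, and library 118 set the hepatocyte mean. The fold change was 8.17 ± 0.55 (adjusted p = 3.56e-09, and 8.94 without library 118), a 230-fold ratio of means that became 1840-fold without library 118. Alb, serum albumin (NM_009654, chromosome 5, 90889915 to 90905629, plus strand), measured 3193, 2034, 2867, 3054 and 3215 RPKM in the ductal libraries and 29747, 33681, 31050.3 and 47947 in hepatocytes. It fell by 3.62 ± 0.24 on the log2 scale (adjusted p = 3.42e-09), a 12.4-fold lower mean, yet Alb was still the fourth most abundant gene of the ductal libraries. The cholangiocyte markers Krt19, Krt7, Epcam, Sox9, Cftr and Sctr were all higher, and of the 6 hepatocyte markers (Alb, Ttr, Apoa1, Cyp2e1, Cps1 and Hnf4a) all were lower, without overlap of libraries. The secretory product Spp1 (osteopontin) measured 18908, 19491, 17997, 18386 and 18310.2 RPKM in ductal cells and 1364, 847, 965 and 578 in hepatocytes, and its mean of 18620 ± 588 RPKM was the highest of any gene in ductal cells.

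**Figure D2:**
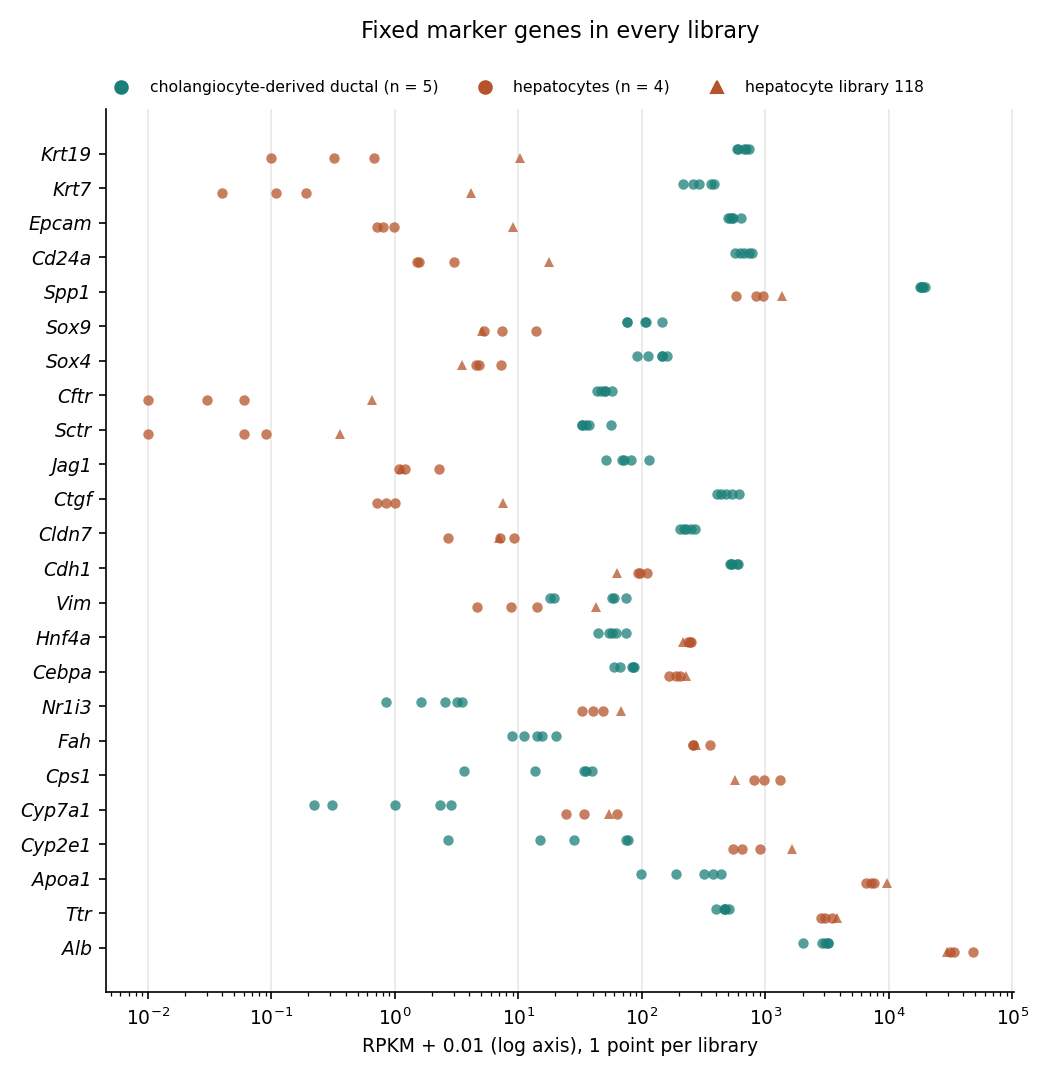
RPKM + 0.01 on a log axis (horizontal) of the 24 fixed marker genes (vertical), with 1 point per library, for 5 cholangiocyte-derived ductal libraries (green) and 4 hepatocyte libraries (brown, with library 118 as a triangle). Ductal markers at the top differ by orders of magnitude with library 118 as the highest hepatocyte point for Krt19, Krt7, Epcam, Cftr and Ctgf, whereas Vim overlaps between the groups.

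All 18 members of the biliary identity list were higher in ductal cells, 16 of them at least 4-fold, with a median change of 4.86 against 0.76 over all tested genes, and 18 of 18 remained called higher after rescaling. The list held 8.74 to 9.50% of all RPKM in ductal libraries and 0.753 to 1.10% in hepatocytes. Krt7 measured 289, 364, 258, 385 and 214 RPKM in ductal libraries and 4.14, 0.03, 0.10 and 0.18 in hepatocytes (fold change 7.51 ± 0.46, adjusted p = 1.15e-09). Epcam measured 514, 533, 501, 633 and 547 against 9.02, 0.71, 0.79 and 0.98 (7.61 ± 0.42, adjusted p = 4.28e-10, and 8.22 without library 118). Both were under 1 RPKM in every hepatocyte library other than 118. Cldn4, a sealing claudin, was unlike them in having a steady hepatocyte level: 702, 470.2, 577, 579 and 648 RPKM in ductal cells against 17.6, 19.95, 18.1 and 12.8, a ratio of 34.8 that stayed at 35.2 without library 118. Atp1b1, a sodium pump subunit (652.6 ± 58.9 against 47.1 ± 8.55 RPKM), Pkhd1, the fibrocystin of ductal cilia (74.1 ± 16.5 against 2.94 ± 0.587), and Bicc1, an RNA-binding protein of ductal epithelia (261 ± 27.0 against 10.8 ± 3.04), had like patterns.

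The 10 genes with the largest rise among those with at least 5 RPKM were Mmp7, Krt19, Epcam, Krt7, Ctgf, Ankrd1, Scara3, Muc1, Sftpd and Cd24a. Mmp7, the secreted protease matrilysin, led them at 845, 472, 583, 1016 and 1153 RPKM in ductal cells and 18.3, 0.00, 0.20 and 1.11 in hepatocytes (8.19 ± 0.73, adjusted p = 7.72e-08, and 9.15 without hepatocyte library 118). Muc1, a membrane mucin, measured 298, 219, 277, 281 and 214 against 2.98, 0.05, 0.10 and 0.33 (7.35 ± 0.38, adjusted p = 2.26e-10). Sftpd, a collectin of innate defence best known from lung, measured 544, 423, 453, 602 and 549.8 against 11.2, 1.13, 1.11 and 0.96 (7.31 ± 0.43, and 7.95 without hepatocyte library 118). In these genes, as in Krt19, hepatocyte library 118 held the highest hepatocyte value. The scavenger receptor Scara3 (515 ± 36.5 against 2.88 ± 3.48 RPKM) and the muscle ankyrin repeat gene Ankrd1 (375 ± 160 against 1.48 ± 2.22) did the same. Cd24a rose by 7.17, and by 7.835 without that library.

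Transcription factors separated into ductal, shared and hepatocyte sets. Of 18 biliary and epithelial factors 17 were higher and none lower, 15 at least 4-fold, with a median of 3.67. Klf5, a zinc finger factor of simple epithelia (NM_009769, chromosome 14, 99697910 to 99712628, mm9), measured 51.0, 40.2, 59.4, 43.5 and 47.2 RPKM against 0.43, 0.02, 0.00 and 0.07 (5.45 ± 0.14, adjusted p = 5.73e-13). Ehf, an ETS factor of epithelia (173 ± 12.3 against 0.943 ± 1.00), and Foxj1, a regulator of ciliated cells (100.3 ± 10.3 against 0.545 ± 0.459), were as nearly absent from hepatocytes. The biliary factors Sox9 and Sox4 were not. Sox9 measured 106, 76.1, 108, 75.7 and 146 RPKM in ductal libraries against 5.04, 5.23, 7.43 and 13.9 in hepatocytes (3.6 ± 0.26, adjusted p = 6.41e-09), and Sox4 131 ± 28.2 against 5.00 ± 1.60 (4.46 ± 0.18). For Sox9 and Sox4 library 118 was the lowest hepatocyte, not the highest. Hes1, an effector of Notch, was the most abundant of the list and the least even among ductal libraries: 1050.5 and 946.6 RPKM in 118 and 220, 807 in 611, and 459 and 430 in 219 and 225, against 13.2 to 54.5 in hepatocytes.

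The hepatocyte factor list was divided. Of 27 members 17 were lower and 8 higher in ductal cells, only 5 by at least 4-fold downward, with a median of -1.36, and after rescaling 18 were lower and 7 higher. Nr1i3, the constitutive androstane receptor of drug metabolism, measured 3.51, 0.84, 3.17, 2.56 and 1.63 RPKM against 68.3, 33.0, 40.4 and 48.2 (-3.88 ± 0.27, adjusted p = 4.66e-09), and Ppara, a nuclear receptor which drives fatty acid oxidation, 2.41 ± 0.816 against 27.9 ± 3.20. The master factor Hnf4a (NM_008261, chromosome 2, 163372924 to 163398643, mm9) was called lower but stayed abundant: 57.4, 74.0, 61.3, 54.7 and 44.3 RPKM against 215, 248, 244 and 238 (-2.02 ± 0.18, adjusted p = 6.23e-08). Cebpa (76.2 ± 12.5 against 196 ± 25.2 RPKM, -1.36 ± 0.24) and Nr1i2 (18.1 ± 1.47 against 39.5 ± 3.06, -1.09 ± 0.09) fell less. Foxa1, a pioneer factor of both liver epithelia, moved the other way at 26.2, 28.8, 32.2, 23.8 and 32.3 RPKM against 5.01, 7.40, 10.9 and 7.90 (1.79 ± 0.18, and 1.02 after rescaling), as did Nr5a2 (52.0 ± 7.01 against 21.5 ± 3.97, 1.25 ± 0.13, and 0.44 after rescaling).

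Promoters show where such factors could bind. The letters of a motif were searched on both strands of the 300 bases around each start site (250 before to 50 after), taken from RefSeq on GRCm38.p6, not the build of the expression table. A promoter was found for 10007 of the 12638 tested genes. The HNF4 letters CAAAGTCCA occurred in 15 of 511 promoters of genes at least 4-fold lower in ductal cells (2.94%), in 3 of 1337 of genes at least 4-fold higher (0.224%) and in 59 of all 10007 (0.59%). In the same order, the TATA letters TATAAA occurred in 19.4%, 10.5% and 9.1%, and the TEAD letters GGAATG in 19.4%, 16.2% and 14.6%. CEBP letters (TTGCGCAA) and GRHL letters (AACCGGTT) occurred in under 1% of each set. No motif letters searched here contain those of another. Shown are the promoters of Cyp3a11 and Cyp2c70, P450 genes of drug and bile acid metabolism that hold an HNF4 match and fell, 5′ to 3′ on the gene's strand, with every match of a searched motif in capitals.
Cyp3a11, GRCm38.p6 chr5:145879805-145880104, minus strand, TATA letters and then HNF4 letters: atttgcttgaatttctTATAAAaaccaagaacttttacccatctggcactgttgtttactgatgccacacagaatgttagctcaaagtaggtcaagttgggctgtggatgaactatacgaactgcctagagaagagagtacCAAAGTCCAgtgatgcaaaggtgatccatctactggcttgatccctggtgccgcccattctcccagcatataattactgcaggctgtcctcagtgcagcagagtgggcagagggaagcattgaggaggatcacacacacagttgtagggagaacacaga
Cyp2c70, GRCm38.p6 chr19:40187237-40187536, minus strand, HNF4 letters and then TATA letters on the opposite strand: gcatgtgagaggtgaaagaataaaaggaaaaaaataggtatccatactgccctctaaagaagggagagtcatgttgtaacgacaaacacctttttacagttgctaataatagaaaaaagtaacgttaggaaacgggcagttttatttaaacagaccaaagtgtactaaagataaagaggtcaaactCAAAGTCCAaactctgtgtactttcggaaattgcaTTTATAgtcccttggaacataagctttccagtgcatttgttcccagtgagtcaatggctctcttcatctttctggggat
Cyp2c70, which modifies bile acids in the mouse, measured 14.7, 1.86, 13.4, 23.7 and 12.2 RPKM in ductal libraries against 353, 486, 529 and 969 in hepatocytes (-5.56 ± 0.60, adjusted p = 6.1e-07). Its lowest value was that of ductal library 219, and the groups did not overlap. A match is a description of letters and not a bound site.

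Ductal cells expressed a sealed, anchored epithelium. Of 23 tested tight junction and polarity genes 21 were higher, 11 at least 4-fold, with a median of 1.96, and 19 were higher and 3 lower after rescaling. Marveld3, a tight junction membrane protein, measured 19.3, 22.6, 22.3, 21.7 and 23.1 RPKM against 0.61, 0.31, 0.27 and 0.19 (4.09 ± 0.12, adjusted p = 1.18e-12), and Esrp1, an epithelial splicing regulator, 31.8 ± 1.85 against 0.09 ± 0.154. Cldn1 was the exception. This claudin fell from 30.4, 80.3, 78.8 and 83.5 RPKM in hepatocytes to 2.27, 2.82, 1.58, 3.61 and 1.18 (-4.34 ± 0.28, adjusted p = 2.05e-09), while Cldn7 rose to 234 ± 24.9 from 6.46 ± 2.71 (5.06 ± 0.23), so the log2 ratio of Cldn7 to Cldn1 ran from 6.17 to 7.61 in ductal cells and from -4.91 to -2.12 in hepatocytes. The adherens junction cadherin Cdh1 rose 6.09-fold to 554 ± 39.1 RPKM, and the neuronal-type cadherin Cdh2 was lower at 13.2 ± 5.24 against 26.2 ± 6.82 (-0.97 ± 0.23, adjusted p = 0.00138, and -1.77 after rescaling).

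Of 15 tested keratin and desmosome genes 12 were higher and 1 lower, with a median of 1.48 (9 and 2 after rescaling). The count higher is not far above the 67.1% over all tested genes, while 7 rose at least 4-fold, against 14.2%. Pkp3, a desmosomal plaque protein, was the most even, at 31.8, 27.8, 30.6, 31.1 and 30.7 RPKM against 1.36, 1.00, 1.60 and 1.57 (3.73 ± 0.09, adjusted p = 2.91e-13). The keratin shared by both epithelia, Krt18, stood at 2065 ± 296 RPKM against 1203 ± 211 (0.78 ± 0.15), and this sign turned to -0.06 after rescaling. Perp, a desmosomal membrane protein, fell by 0.68 ± 0.10 (58.0 ± 7.86 against 92.7 ± 6.43 RPKM, and -1.505 after rescaling).

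The basement membrane list moved nearly whole. Of 20 genes 19 were higher, 15 at least 4-fold, with a median of 4.02, and 18 were higher after rescaling. The hemidesmosome integrin Itgb4 (NM_133663, chromosome 11, 115836039 to 115869725, mm9) measured 51.8, 39.6, 53.3, 49.2 and 47.4 RPKM against 0.48, 0.04, 0.07 and 0.11 (5.40 ± 0.12, adjusted p = 2.66e-13). Every hepatocyte library lay far below every ductal library. Itga3 rose to 154 ± 6.57 from 6.23 ± 1.28 (4.44 ± 0.11) and Lamb2 to 58.8 ± 8.44 from 1.42 ± 0.772 RPKM. All 9 tested laminin genes were higher, 8 at least 4-fold. The integrin subunit shared by many pairs, Itgb1, was the most abundant of the list and nearly even (180 ± 11.6 against 103 ± 8.13 RPKM, 0.81 ± 0.09, and -0.03 after rescaling). Nid1, a linker of laminin and collagen, was lower (-1.63 ± 0.26).

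The bile-modifying machinery of the duct was present in ductal cells and mostly near 0 in hepatocytes. Of 17 tested genes 13 were higher and none lower, 10 at least 4-fold, with a median of 2.79 (13 higher and 3 lower after rescaling). The count higher is not far above the 67.1% over all tested genes, while the 10 compare with 14.2%. The chloride channel Cftr measured 50.7, 43.6, 50.6, 57.5 and 46.5 RPKM against 0.64, 0.00, 0.02 and 0.05 (5.46 ± 0.20, adjusted p = 6.22e-12), and the secretin receptor Sctr 33.0, 32.8, 37.6, 56.7 and 35.6 against 0.35, 0.00, 0.05 and 0.08 (5.14 ± 0.30). Every ductal value was far above the highest hepatocyte value, which for both was that of library 118. The chloride loader Slc12a2 (58.5 against 2.36 RPKM on average) rose as well, as did the glucose carrier Slc5a1 (73.9 ± 3.97 against 3.51 ± 0.920). The bile acid carrier Slc10a2, named for its apical uptake in ileum and ducts, was not called: 20.7, 33.2, 27.5, 20.5 and 31.2 RPKM in ductal libraries and 20.4, 49.4, 36.9 and 41.1 in hepatocytes (-0.42 ± 0.22, adjusted p = 0.0871). It was called lower with the sample number as a block (-0.52, adjusted p = 0.0305) and also without hepatocyte library 118, its lowest hepatocyte value (-0.67, adjusted p = 0.00177), after rescaling (-1.23, adjusted p = 0.000135) and under quantile normalization.

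Cilium genes rose in ductal cells by smaller steps. Of 22 genes 21 were higher and 1 lower, 8 at least 4-fold, with a median of 1.69 (17 and 3 after rescaling). Tulp3, an adaptor of ciliary traffic, measured 18.5, 20.2, 21.4, 19.7 and 21.7 RPKM against 1.21, 1.57, 1.76 and 0.97 (3.17 ± 0.10, adjusted p = 2.81e-12). The transport proteins Bbs2 (16.2 ± 1.12 against 1.25 ± 0.211) and Ift57 (30.1 ± 3.31 against 1.82 ± 0.628) had similar patterns. Ift20, a transport protein that also works at the Golgi, overlapped between groups and its lower call (-0.27 ± 0.11, adjusted p = 0.0391) was lost with the sample number as a block (adjusted p = 0.0711) and without hepatocyte library 118 (-0.15, adjusted p = 0.135), while rescaling gave -1.09.

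Signalling genes of the ductular reaction were higher in ductal cells as ligands, receptors and targets. All 14 tested Notch pathway genes were called higher, 7 at least 4-fold (13 higher and 1 lower after rescaling). The ligand Jag1 measured 51.7, 72.0, 81.3, 68.8 and 114.5 RPKM against 1.12, 1.08, 2.26 and 1.19 (5.01 ± 0.19, adjusted p = 1.29e-11). Jag2 was low but separate (4.11 ± 0.575 against 0.033 ± 0.053), Dll1 rose to 10.2 ± 1.73 from 1.63 ± 0.609, and the protease Adam10, which cleaves the receptors, to 56.0 ± 4.53 from 21.8 ± 3.00.

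Of 16 YAP and TEAD genes, which include the factors as well as target genes, 15 were higher and none lower, 10 at least 4-fold, with a median of 2.60 (13 and 1 after rescaling). The secreted target Ctgf measured 481, 406, 534, 617 and 436 RPKM against 7.57, 0.71, 0.84 and 1.00 (7.499 ± 0.38, adjusted p = 1.7e-10), and its relative Cyr61 1113, 734, 1329, 572 and 1533 against 151, 58.1, 73.7 and 81.4 (3.52 ± 0.34). Cyr61 ranked the ductal libraries differently from Ctgf, with 225 highest for Ctgf and lowest for Cyr61. The DNA-binding partners Tead2 (27.0 ± 3.65 against 0.448 ± 0.377) and Tead4 (6.17 ± 0.922 against 0.275 ± 0.068) and the phosphatase Ptpn14 (27.6 ± 3.16 against 0.245 ± 0.133) rose as well.

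Of 25 tested growth factors and morphogens 18 were higher and 4 lower, 12 and 1 at least 4-fold, with a median of 1.97 (14 and 6 after rescaling). The count higher is near the 67.1% over all tested genes, while the 12 that rose at least 4-fold compare with 14.2%. Tgfb3 measured 26.2, 30.6, 30.3, 30.02 and 29.4 RPKM in ductal cells against 0.63, 0.04, 0.14 and 0.15 (4.63 ± 0.13, adjusted p = 6.71e-13). The Wnt ligands Wnt4 (40.0 ± 1.99 against 0.505 ± 0.551) and Wnt7a (14.3 ± 2.98 against 0.243 ± 0.089) and the vasoactive peptide gene Edn1 (15.7 ± 2.06 against 0.223 ± 0.361) were likewise near 0 in hepatocytes. Hbegf, a ligand of the EGF receptor, was the most abundant at 167 ± 67.0 RPKM, with 223, 200 and 220 in libraries 118, 220 and 611 and 79.6 and 110 in 219 and 225. Another ligand of that receptor, Areg, was lower in ductal cells (0.70 ± 0.228 against 3.41 ± 1.75), and so was Gdf15, a stress-induced hormone (33.2 ± 12.5 against 160.1 ± 41.4, -2.28 ± 0.39).

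Receptors divided in part by the same line. Of 18 epithelial receptors 14 were higher and none lower, 10 at least 4-fold (14 higher and 4 lower after rescaling). The count higher is not far above the 67.1% over all tested genes, while the 10 compare with 14.2%. Over all tested genes 17.4% were lower. Fgfr3 measured 450.2, 295, 492, 359 and 533 RPKM against 10.9, 6.70, 10.2 and 11.1 (5.31 ± 0.21, adjusted p = 1.38e-11), and Erbb2 30.1, 26.3, 34.3, 28.6 and 30.1 against 0.68, 0.02, 0.08 and 0.06 (4.70 ± 0.13). Of 17 hepatocyte receptors 10 were lower and 5 higher (13 and 2 after rescaling), led by Ghr, the growth hormone receptor (13.6 ± 2.55 against 149 ± 19.8 RPKM, -3.37 ± 0.17), and by Asgr1 and Asgr2, the asialoglycoprotein receptor (15.7 ± 10.3 against 505 ± 106 and 6.22 ± 3.25 against 178 ± 13.5). The cytokine receptors Il1r1 (34.8 ± 3.13 against 9.98 ± 0.687, 1.70 ± 0.11) and Ifngr1 (123 ± 14.5 against 30.5 ± 3.36, 1.98 ± 0.14) ran against that list.

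Among 20 chemokine and innate defence genes 14 were higher and 3 lower, with a median of 2.13 (13 and 4 after rescaling). The count higher is near the 67.1% over all tested genes, while 10 rose at least 4-fold, against 14.2%. The neutrophil attractant Cxcl5 measured 410.0, 200.1, 189, 342 and 207 RPKM against 7.83, 0.31, 0.50 and 0.39 (6.86 ± 0.51, adjusted p = 9.05e-09, and 7.52 without hepatocyte library 118). Cx3cl1 (44.7 ± 5.56 against 3.05 ± 0.991) and Cxcl16 (178 ± 13.8 against 17.4 ± 6.83) rose by 3.53 and 3.34. Pigr, which carries IgA into bile, ran the other way at 32.4, 17.0, 28.3, 35.0 and 47.9 RPKM against 410.3, 590.4, 448 and 690.3 (-4.06 ± 0.26, adjusted p = 2.09e-09). Lcn2, an iron-binding defence protein of injured epithelia, was abundant in both (1939 ± 639 against 639 ± 156, 1.58 ± 0.26). Of 8 tested mucin and secretory genes 6 were higher, near the 67.1% over all tested genes, and these 6 all rose at least 4-fold. The 2 lower were Tff3, a trefoil peptide (4.51 ± 1.46 against 44.2 ± 15.3 RPKM, -3.01 ± 0.50), and Spdef, under 1 RPKM throughout.

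The hepatocyte programme was lower almost without exception among secreted proteins and enzymes. All 29 coagulation and complement genes, 24 of 25 plasma carriers and acute phase genes and 18 of 20 apolipoprotein genes fell, by at least 4-fold in 25, 21 and 16, against 5.25% of tested genes, with medians of -4.26, -3.62 and -4.49. The plasma carriers held 2.15 to 2.46% of all RPKM in ductal libraries and 14.8 to 19.9% in hepatocytes. The fibrinogen chain Fga measured 192, 190.4, 152, 196 and 178 RPKM against 1648, 2366, 2493 and 3111 (-3.69 ± 0.16, adjusted p = 4.13e-11). The transthyretin gene Ttr measured 508, 472, 475, 460.2 and 401 against 3785, 2800.2, 3034 and 3491 (-2.81 ± 0.15). Apoa1, the main protein of HDL, varied more, at 434, 188, 319, 374 and 98.4 RPKM against 9623, 7646, 7115 and 6500.2 (-4.93 ± 0.42). The most abundant apolipoprotein and complement genes fell by less than their lists' medians. Apoe stood at 3597 ± 114 against 15620 ± 1981 RPKM (-2.11 ± 0.15), and C3, the central complement protein, at 2518 ± 119 against 4768 ± 899 (-0.90 ± 0.15, and -1.74 after rescaling), a sign that quantile normalization turned to 0.94.

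Detoxification and intermediary metabolism fell as far. Lower were 22 of 23 cytochrome P450 and reductase genes (median -4.05), 24 of 25 conjugation enzymes (-2.96), 22 of 23 tested genes of bile acid synthesis and transport (-3.87), 18 of 18 of the urea cycle and gluconeogenesis (-3.84) and 24 of 25 of amino acid catabolism (-4.30). Cyp3a11, a drug-metabolising enzyme (NM_007818, chromosome 5, 146666183 to 146691430, mm9), had the largest fall on the log2(RPKM + 1) scale with all libraries: 113, 1.02, 66.5, 104 and 26.2 RPKM against 3092, 1978, 2246 and 2118 (-6.10 ± 1.10, adjusted p = 0.000119). Cyp2c29 was close to it (-6.08) and fell more without hepatocyte library 118 (-6.18, against -5.97 for Cyp3a11). The standard error of Cyp3a11 is large, and ductal library 219 lay far below the others. Cyp7a1, whose enzyme begins the main route to bile acids, measured 2.86, 0.21, 2.31, 1.00 and 0.30 against 54.7, 33.7, 62.5 and 24.1 (-4.32 ± 0.38, adjusted p = 6.85e-08), and the bile salt pump gene Abcb11 3.85 ± 2.54 against 191 ± 92.0 (-5.31 ± 0.46). Cps1, the entry enzyme of the urea cycle, measured 34.2, 3.63, 35.1, 39.1 and 13.6 against 568, 973, 811 and 1326 (-5.44 ± 0.56). Fah, of tyrosine breakdown, fell 20.5-fold to 14.01 ± 4.37 RPKM. Members against the direction were Cyp2d22 (0.73 ± 0.14, and -0.10 after rescaling) and the dehydratase relative Sdsl (0.62 ± 0.14, and -0.18). Of the tested genes of the lobule's zones, 11 of 12 periportal genes fell (10 at least 4-fold, median -4.57), as did 10 of 12 pericentral genes (7 at least 4-fold, median -2.35), a difference that was not tested. Cdh1, itself a periportal marker, was the one that was higher.

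Energy metabolism that both cells share fell by less. Of 24 fatty acid oxidation genes 23 were lower but only 9 at least 4-fold, with a median of -1.46. Ehhadh, the bifunctional enzyme of peroxisomal fatty acid oxidation, measured 17.5, 16.1, 16.0, 19.8 and 16.4 RPKM against 106, 142, 158 and 157 (-2.95 ± 0.12, adjusted p = 1.68e-11). Of 20 tested genes of cholesterol and fatty acid synthesis 15 were lower, 3 at least 4-fold, and 3 higher (17 and 1 after rescaling). The desaturase Scd1 fell the most, from 626, 1429, 1539 and 1352 RPKM to 28.4, 9.15, 26.6, 66.9 and 20.3 (-5.49 ± 0.46), while the regulator Srebf2 was higher at 83.3 ± 7.58 against 28.3 ± 7.58 (1.57 ± 0.16, and 0.75 after rescaling) and Srebf1 was 0.58 ± 0.15 higher on the deposited scale and 0.24 lower (-0.24) after rescaling. Of 20 haem and iron genes 17 were lower and 3 higher (17 and 2 after rescaling). The hepcidin gene Hamp stood at 98.0 ± 41.4 against 1841 ± 600.3 RPKM (-4.28 ± 0.30) and Hfe2, its coregulator, at 2.22 ± 1.25 against 72.0 ± 11.7. Bmp6, the ligand that induces hepcidin, was 2.85-fold higher (56.2 ± 6.37 against 19.7 ± 10.9), and Ppox, of haem synthesis, 2.53-fold. Ferritin heavy chain Fth1 fell by 0.93 ± 0.16 (-1.77 after rescaling), a sign that quantile normalization turned to 0.64.

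**Figure D3:**
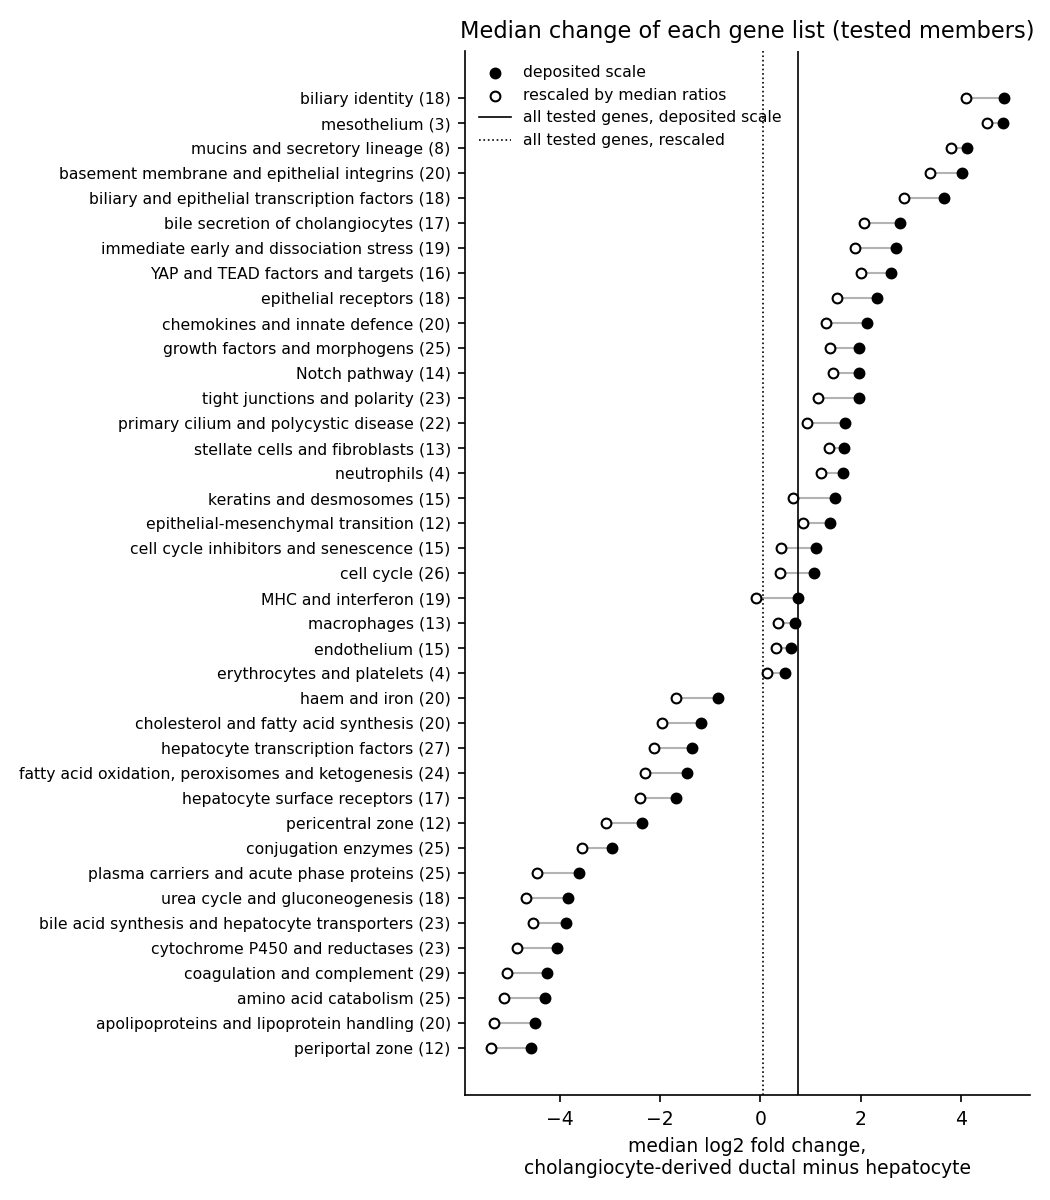
Median log2 fold change (horizontal axis, ductal minus hepatocyte) of the tested members of each gene list (vertical axis, number tested in brackets), on the deposited scale (filled) and after rescaling by median ratios (open), with the medians of all tested genes as lines (0.76 solid, 0.06 dotted). Ductal lists reach 4.86 (biliary identity) and hepatocyte lists -4.57 (periportal zone), while cell cycle, MHC, macrophage and endothelial lists lie near the line of all genes.

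The level at which hepatocyte transcripts remained in ductal cells was uneven between libraries. Over the 297 genes of the hepatocyte lists with at least 5 RPKM in hepatocytes, the ductal mean was under 5% of the hepatocyte mean for 100, between 5 and 25% for 96, between 25 and 100% for 77 and at or above it for 24. For a set chosen on the other ductal libraries, 80 of these genes with a hepatocyte mean of 100 RPKM or more and under 5% of it in ductal libraries other than 219, the range from the lower to the upper quartile was 4.13 to 5.68% in library 118, 3.44 to 4.69% in 220, 4.35 to 5.2% in 225 and 1.27 to 1.91% in 611. In these 4 libraries the quartiles lay close together, so genes stood at similar fractions of their hepatocyte level, in part because the choice of genes capped those fractions. In library 219 that range was 0.562 to 4.14%, a 7.36-fold span against 1.2 to 1.5-fold, and 29 of the 80 genes were under 1%. Over all 297 genes library 611 and not 219 had the widest span: the quartiles were 3.35 and 37.1% in 219, 1.78 and 35.6% in 611, and 4.8 to 5.62% and 35.5 to 37.2% in the other libraries. Cyp2c29 stood at 0.46 RPKM in 219 and 29.3 to 59.0 in the other ductal libraries, Cyp3a11 at 1.02 and 26.2 to 113, Cyp1a2 at 0.41 and 7.06 to 21.8, Orm1 at 3.45 and 21.96 to 78.5, and Fabp1 at 5.77 and 38.3 to 141. Other hepatocyte genes were highest in 219, among them, chosen after their values were seen, the protease inhibitor Serpina1b (362 RPKM against 59.2 to 154), the clotting factor F12 (49.0 against 6.32 to 25.1) and Tat, of tyrosine breakdown (84.4 against 9.35 to 54.7). Of all 297 genes 204 stood in 219 at 75% or more of the mean of the other ductal libraries (median 98.6%), and 37 under 25% of it. Among the latter were 10 of 23 P450 and reductase genes and 1 of 29 coagulation and complement genes. In bulk RNA, fewer cells of a type and less RNA per cell cannot be told apart.

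Paired isoenzymes and paralogs shifted in balance. The 18 pairs of a gene typical of duct or other tissues and its hepatocyte counterpart were listed from general knowledge, with earlier results of these data known. In 17 the log2 ratio was higher in every ductal library than in any hepatocyte library. The 5-aminolevulinate synthases Alas2 and Alas1 were the exception. Glycogen synthase Gys1, the muscle-type form, measured 10.3, 10.5, 10.8, 10.8 and 10.3 RPKM in ductal cells against 1.11, 0.95, 1.07 and 1.03 (2.50 ± 0.07, adjusted p = 6.71e-13), and Gys2, the liver form, 5.19, 1.19, 4.05, 3.11 and 0.67 against 102, 55.9, 55.9 and 45.3 (-4.19 ± 0.42). The log2 ratio of Gys1 to Gys2 ran from 0.97 to 3.75 in ductal libraries and from -6.4 to -5.33 in hepatocytes. Pyruvate kinase Pkm2 rose to 36.9 ± 3.52 from 4.68 ± 7.60 RPKM (a hepatocyte mean set by library 118 at 16.1, without which the rise of 3.53 on the log2 scale became 4.33) as Pklr fell from 130.4 ± 18.0 to 29.9 ± 5.61. The more abundant member also changed for the glycogen phosphorylases (Pygb 1.57, Pygl -3.76), the pyruvate dehydrogenase kinases (Pdk3 3.44, Pdk4 -1.94) and the mitochondrial ADP/ATP carriers (Slc25a4 3.36, Slc25a5 -1.25).

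In some pairs 1 member was not called on the deposited scale. Mat2a was not called there (43.4 ± 13.7 against 48.2 ± 7.31 RPKM, adjusted p = 0.386) but was lower after rescaling (-1.02, adjusted p = 0.000293), while Mat1a, the liver form of the methionine-activating enzyme, fell by 4.35. Eno1 was not called on either scale (0.36 ± 0.25, adjusted p = 0.191, and -0.47, adjusted p = 0.0843) while Eno2 rose from 0.015 to 1.14 RPKM. In some pairs the member typical of duct or other tissues remained the smaller partner in ductal cells, with log2 ratios under 0. These were Pfkp against Pfkl, Cpt1c against Cpt1a, Arg2 against Arg1, Ldhb against Ldha and Eno2 against Eno1, although Ldhb rose by 3.87 and Ldha fell by 1.81. The connexins were alike, where Gja1 rose by 5.11 (5.73 without hepatocyte library 118) and Gjb1 fell by 2.26, at log2 ratios of -1.25 to -0.26 in ductal libraries. Alas1 and Alas2 both fell, by 2.89 and 3.39, and Pfkl rose together with Pfkp on the deposited scale (0.86 and 2.34, and 0.06 and 1.64 after rescaling).

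**Figure D4:**
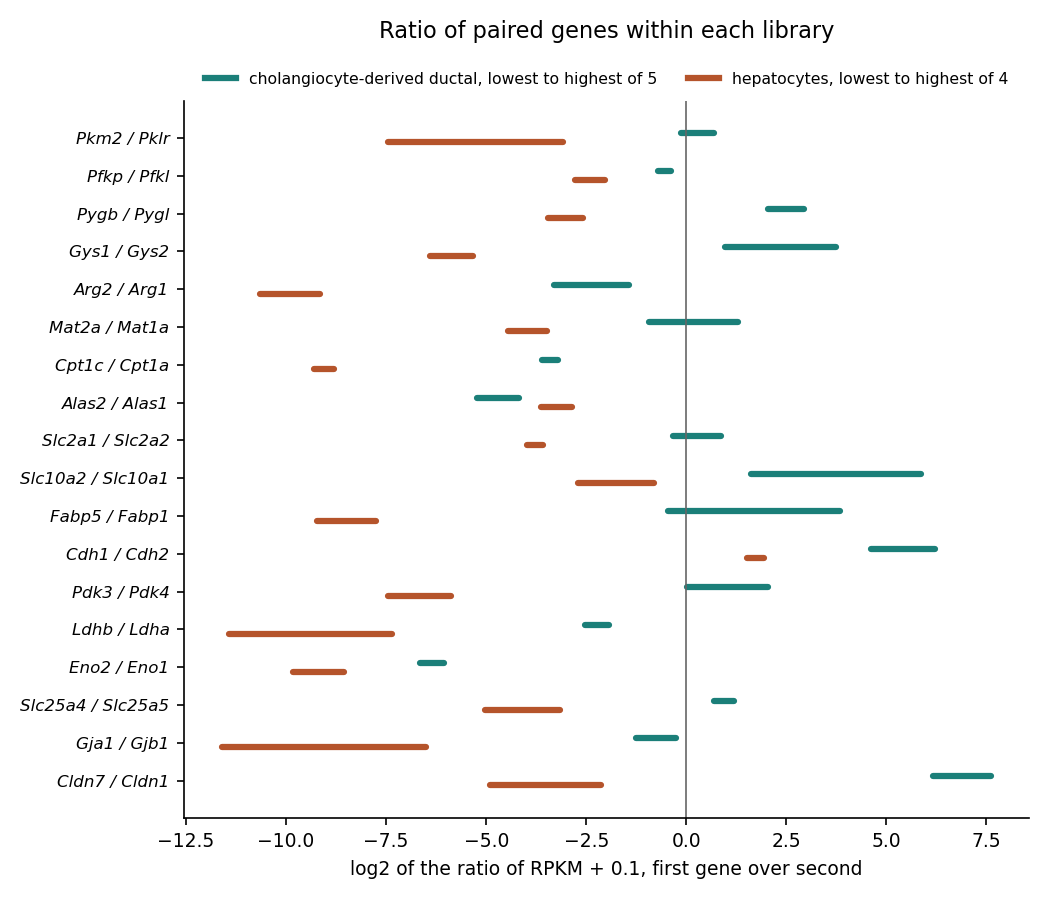
Log2 of the ratio of RPKM + 0.1 within each library (horizontal axis) for 18 gene pairs (vertical axis), as bars from the lowest to the highest of 5 ductal (green) and 4 hepatocyte libraries (brown). The bars do not overlap for any pair, and lie to the right in ductal cells in all but Alas2 over Alas1.

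On and off states were unequal in number. With every library of one population at 5 RPKM or more and every library of the other under 0.5, 258 genes were on in ductal cells alone and 4 in hepatocytes alone (Csrp3, Gm11437, Cyp2d40 and Sdr9c7). Without hepatocyte library 118 the counts were 527 and 8. Each population held transcripts of the other at low fractions. Of 297 hepatocyte-list genes, 100 stood under 5% of the hepatocyte mean in ductal cells. Of 216 ductal-list genes with at least 5 RPKM in ductal cells, 72 stood under 5% of the ductal mean in hepatocytes. For the 80 hepatocyte genes described above, which were chosen for low fractions, the median ranged from 1.57% of the hepatocyte level in library 611 to 5.02% in 118. At such fractions an abundant hepatocyte gene stays above 0.5 RPKM in ductal libraries and cannot be counted. The part of these fractions in the unequal counts was not tested. Neither count was taken after rescaling. The ductal set included Itgb4, Klf5, Esrp1, Ptpn14 and Sctr, while Krt7 and Erbb2 were outside it through hepatocyte library 118 alone. Csrp3, a muscle LIM protein, had the highest of the 4 hepatocyte levels, at 8.84 to 17.9 RPKM against 0 to 0.41 in ductal cells.

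Cell cycle genes were called higher or not called. Of 26 cell cycle genes 18 were higher and none lower, with a median of 1.07 against 0.76 over all genes. That share is near the 67.1% called higher over all tested genes, 7 of the 26 rose at least 4-fold against 14.2%, and the counts became 12 and 2 after rescaling and 11 and 8 under quantile normalization (median 0.01). The 6 helicase genes of DNA replication were all higher and 4 of them at least 4-fold, Mcm4 at 15.8, 20.7, 21.2, 21.3 and 15.0 RPKM against 3.09, 2.16, 2.81 and 2.63 (2.42 ± 0.14, adjusted p = 4.52e-10). Among the cyclins, Ccnd1 stood at 299.6 ± 56.5 against 54.7 ± 20.8 RPKM and Ccnd2 at 35.2 ± 6.51 against 0.438 ± 0.620 (4.72 ± 0.22). The inhibitors Cdkn1b (47.2 ± 4.83 against 14.5 ± 0.986) and Cdkn2b (18.1 ± 4.38 against 1.25 ± 0.264) and Trp53 (61.3 ± 8.60 against 17.0 ± 3.45) were higher as well, within a list of 15 in which 13 were higher and none lower (7 and 2 after rescaling). In that list 2 rose at least 4-fold, near the 14.2% over all tested genes, of which 67.1% were higher.

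Immediate early genes, which respond quickly to stimuli and to the handling of cells, were higher in 18 of 19 cases and lower in none, 14 at least 4-fold (16 and 0 after rescaling). Fos measured 2525, 1013, 2415, 1247 and 2530 RPKM in ductal cells against 298, 110, 106 and 157 (3.56 ± 0.42), and Egr1 1683, 967, 1647, 1064 and 2041 against 93.5, 85.9, 93.5 and 104 (3.91 ± 0.26, adjusted p = 2.43e-09). Libraries 219 and 225 were the lowest ductal libraries for both, as they were for Hes1, Hbegf and Cyr61. The list summed to 6162 to 14310 RPKM in ductal cells and 1007 to 2032 in hepatocytes, and the part of sorting and digestion in it was not tested. Of 19 MHC and interferon genes 12 were higher and 1 lower, near the 67.1% higher over all tested genes. The counts became 4 and 6 after rescaling. Tap2, a peptide transporter, was higher on either scale (1.70 ± 0.07 and 0.89), Tapbp only as deposited (0.76 ± 0.08 and -0.08), and B2m lower on both (-0.90 ± 0.15 and -1.74) but higher under quantile normalization (0.77).

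Transcripts of other liver cells were present and moved with some of these results. The 15 macrophage markers summed to 50.5 RPKM in ductal library 219 and up to 440.6 in the others, and to 1557 in hepatocyte library 118 against 32.1 to 42.5 in the remaining hepatocytes. Of 13 tested, 1 was called higher and none lower, 10 and none without hepatocyte library 118, 3 and none with the sample number as a block, and 1 and 1 after rescaling. The 15 endothelial markers summed to 33.5 to 173 RPKM in ductal and 10.8 to 249 in hepatocyte libraries, with 3 of 15 called higher, 12 without hepatocyte library 118, 8 with the sample number as a block, 1 after rescaling, and none higher but 3 lower under quantile normalization. Neutrophil markers summed to 1.84 to 154 and 0.32 to 67.7 RPKM, with Csf3r (adjusted p = 0.0275) and Retnlg (0.0328) called on the deposited scale, overlapping between groups. Of 4 tested, all were called higher without hepatocyte library 118 (median 2.33) and with the sample number as a block, and none after rescaling. Lymphocyte markers summed to at most 4.88 RPKM and none was tested, and the haemoglobin genes Hba-a1 and Hbb-b1 stood at 1.59 and 1.38 RPKM in hepatocyte library 118 and at 0.08 or less elsewhere. The erythrocyte and platelet list summed to 11.6 to 19.3 RPKM in ductal and 9.13 to 35.9 in hepatocyte libraries, its most abundant gene in hepatocytes being Alas2 at 18.4 ± 8.13 RPKM. The part of these cells in the results was not tested.

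Mesenchymal markers were higher in ductal libraries and concentrated in 2. Of 13 tested stellate and fibroblast markers 11 were higher and none lower (8 after rescaling, 5 under quantile normalization). Over all tested genes 67.1% were higher as deposited. Col1a1 measured 74.1 and 84.2 RPKM in libraries 118 and 220 and 10.3, 2.80 and 6.76 in 219, 225 and 611, against 7.12, 0.01, 0.32 and 0.27 in hepatocytes (3.26 ± 0.86, adjusted p = 0.00278, and 3.95 without hepatocyte library 118), and Col1a2 had the same order. Rgs5, a regulator of G protein signalling used as a pericyte marker, did not follow the collagens: 509, 844, 481, 583 and 481 RPKM against 21.8, 7.67, 11.8 and 5.32 (5.66 ± 0.30, adjusted p = 3.08e-10), highest in library 219. Vim, the mesenchymal filament, overlapped at 57.8, 74.0, 59.5, 19.4 and 18.2 RPKM against 42.5, 8.74, 14.04 and 4.59 (1.55 ± 0.53, adjusted p = 0.0136), and its call was lost after rescaling (adjusted p = 0.198). Of 12 tested genes of epithelial-mesenchymal transition 8 were higher and 3 lower (6 and 4 after rescaling), close to the 67.1% higher over all tested genes, the transcription factor Snai2 among the latter (0.502 ± 0.232 against 3.20 ± 1.74 RPKM).

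The macrophage growth factor receptor Csf1r and the mesothelial genes Msln and Gpm6a parted from their lists. Csf1r measured 41.9, 43.0, 39.0, 50.4 and 44.5 RPKM in ductal libraries, even in 219, where the macrophage genes Emr1 (0.01), Marco (0.00) and Lyz2 (1.39), the first pair chosen after their values were seen, were at or near 0. In hepatocytes Csf1r measured 31.9 in library 118 and 1.23 to 1.78 in the rest (3.22 ± 0.59, adjusted p = 0.000125, and 4.15 without library 118). Msln, mesothelin, measured 93.1, 84.8, 88.3, 125 and 44.3 RPKM against 1.86, 0.00, 0.04 and 0.07 (5.97 ± 0.36), and Gpm6a 29.4, 27.7, 29.7, 31.7 and 45.5 against 0.68, 0.00, 0.01 and 0.08 (4.84 ± 0.26). Of the other mesothelial markers, also chosen after their values were seen, Upk3b stood at 1.04, Wt1 at 0.496, Upk1b at 0.44 and Bnc1 at 0.046 RPKM on average in ductal cells.

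**Figure D5:**
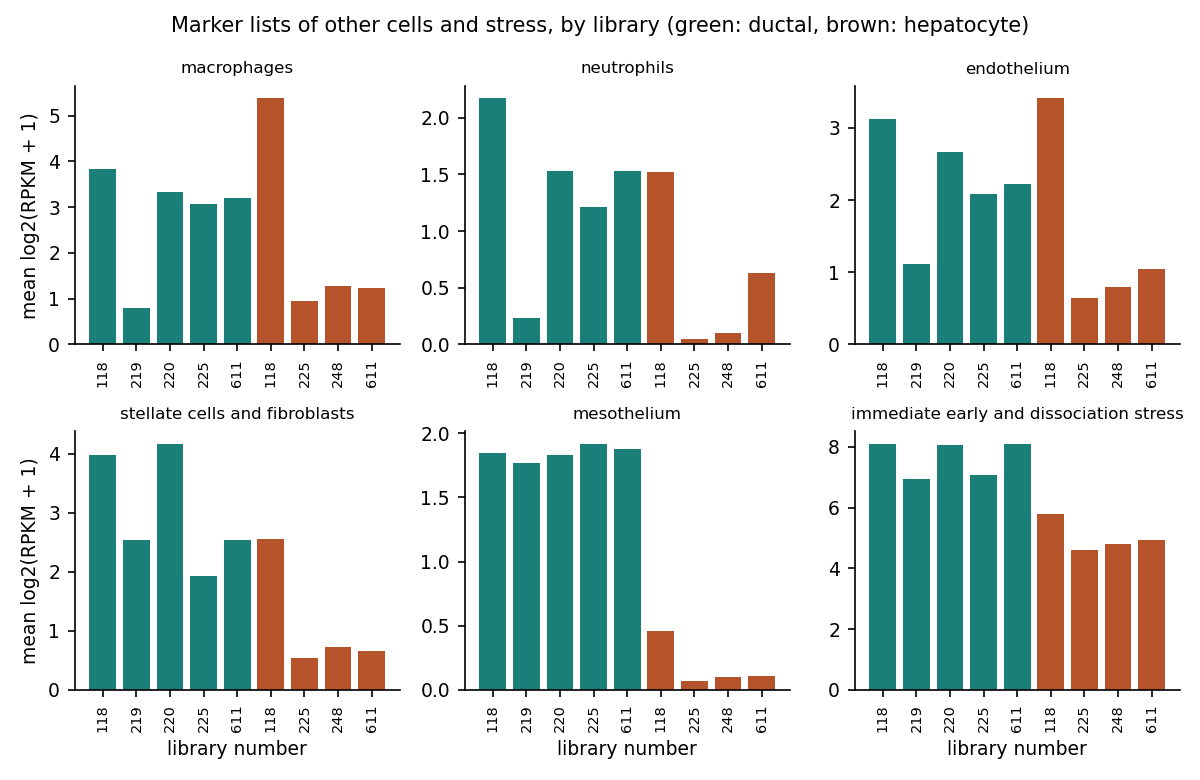
Mean log2(RPKM + 1) of the measured markers of 5 other cell types and of immediate early genes (vertical axes) in each of the 9 libraries (horizontal axes, by number), for ductal (green) and hepatocyte libraries (brown). Hepatocyte library 118 is the highest of all in macrophage (5.38) and endothelial markers (3.41), ductal library 219 is low in both (0.79 and 1.11), and mesothelial and immediate early genes separate the groups.

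Families of housekeeping genes depended on the scale. Of 62 tested cytoplasmic ribosomal proteins 36 were higher and none lower as deposited, none higher and 25 lower after rescaling, and 29 higher and 23 lower under quantile normalization. Proteasome subunits went from 4 higher and 7 lower of 37 to 0 and 35, and to 11 and 12 under quantile normalization. Without hepatocyte library 118, as deposited, 53 ribosomal proteins were higher and none lower, and 7 proteasome subunits higher and 5 lower. NADH dehydrogenase subunits, by contrast, were mostly lower on each scale: 33 of 36 as deposited with a median of -0.59, 36 after rescaling and 28 (with 1 higher) under quantile normalization. Without that library 27 were lower and 1 higher as deposited. Ndufb9 fell the most, to 145 ± 15.9 from 340.4 ± 87.9 RPKM. Among solute carriers 124 were higher and 85 lower of 237 (79 and 121 after rescaling), 34 at least 4-fold each way, from Slco3a1 (5.98) to Slco1b2 (-5.13), an organic anion carrier of the hepatocyte. The 124 higher compare with 67.1% over all tested genes and the 85 lower with 17.4%. The 34 upward are near the 14.2% over all tested genes, while the 34 downward compare with 5.25%.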

How the data were processed

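RNA was sequenced from sorted liver cells of C57BL/6 mice given DDC, with 75 to 200 ng of total RNA and an unstranded poly-A kit, per the labels' protocols. The authors deposited 1 table of RPKM values with 2 decimals for 26005 RefSeq transcripts and 14 libraries, and the submitters' processing notes name Bowtie 0.12.7, CASAVA and mm9. How reads shared by paralogs or by overlapping genes were counted is not given in the sources used here, so close paralogs are uncertain. Read counts are not used here.

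For each of 20377 symbols the transcript with the highest mean was kept. The 12638 symbols that reached 1 RPKM in 4 or more libraries were tested with limma 3.58.1 in R 4.3.3 on log2(RPKM + 1), which understates the fold change of low genes. The fit took 3 groups, a trended variance and Benjamini-Hochberg adjustment, calls had an adjusted p under 0.05, and every adjusted p in the text comes from limma. A gene that passed the filter only through the group where it is high had to differ, so counts over list members are descriptions. The script was tested on simulated data. Columns were matched by name, and 2 columns numbered 220 match no title (titles give 120), so they were matched to their group only. Deviations from the group means of same-numbered ductal and hepatocyte libraries correlated at r = 0.512, 0.133 and 0.225 for 118, 225 and 611. Each such pair passed the 0.1 set for trying the numbers as a block. Libraries of different numbers gave -0.467 to 0.458, so these values cannot show that the numbers pair the samples. The numbers come from titles and column names, and the fit with that block is an alternative that leaves out the number 220.

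Named were the 10 called genes with the largest change each way, fixed markers, up to 4 members with the smallest p, up to 2 against the direction and the most abundant member of each of 40 lists, all members of 18 pairs, and the extremes of 29 families. Some of these genes are not reported here. Members and lists were chosen with earlier results of these data known. Promoters came from RefSeq on GRCm38.p6. Alternatives changed the pseudocount, filter, scaling, model, block and libraries. Other packages were Python 3.11.15, numpy 2.4.6, pandas 2.3.3 and matplotlib 3.10.9.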

Additional observations from a re-analysis of the deposited data

Results flagged for a closer look

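Of 132 groups of values examined for a sample far from the rest of its group, 20 held one, where chance gives about 1 in 20, and 12 of the 20 were hepatocyte library 118. In log2(RPKM + 1), that library stood at 2.36 for Krt7 (0.04 to 0.24 in the other hepatocytes), 3.32 for Epcam (0.77 to 0.99), 0.71 for Cftr (0 to 0.07) and 3.10 for Ctgf (0.77 to 1.0). Its mean over list members was 3.65 for biliary identity (2.74 to 2.88), 2.95 for bile secretion (2.5 to 2.57) and 3.03 for epithelial-mesenchymal transition (2.26 to 2.32). For other cell types it was 5.38 for macrophages (0.95 to 1.27), 3.41 for endothelium (0.65 to 1.04), 2.55 for stellate cells and fibroblasts (0.54 to 0.73), 0.46 for mesothelium (0.07 to 0.11) and 0.27 for lymphocytes (0.01 to 0.05).

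Ductal library 219 was apart in Alb (10.99 against 11.49 to 11.65), in bile secretion (5.2 against 5.44 to 5.53) and in macrophage markers (0.79 against 3.08 to 3.83). Sctr was highest in ductal library 225 (5.85 against 5.08 to 5.27) and Jag1 in hepatocyte library 248 (1.70 against 1.06 to 1.13). The number 611 was apart in both groups for coagulation and complement genes, lowest among ductal libraries (4.11 against 4.85 to 5.13) and highest among hepatocytes (8.86 against 8.59 to 8.63), and hepatocyte library 611 held 22% of its RPKM in its 10 most abundant genes (18.1 to 18.5% in the others).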

How the results depend on the processing

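Of 8475 genes higher and 2195 lower, rescaling by median ratios gave 5132 and 4798, quantile normalization 4891 and 4769, a test against a 2-fold minimum 3687 and 954, and rescaling without hepatocyte library 118 5357 and 5050. The counts at least 4-fold, 1792 and 663, became 1140 and 1030 on rescaling, 1035 lower on rescaling without that library, 905 higher under quantile normalization, and 2828 or 702 higher with a pseudocount of 0.1 or 5. Leaving out 1 library at a time gave 8263 to 8825 higher and 2110 to 2245 lower. Without hepatocyte library 118, 527 and not 258 genes were on in ductal cells alone, and 8 and not 4 in hepatocytes alone. Of 278 named genes, 6 changed sign on rescaling: Cyp2d22 (-0.10), Itgb1 (-0.03), Krt18 (-0.06), Sdsl (-0.18), Srebf1 (-0.24) and Tapbp (-0.08). The same 6 did so on rescaling without hepatocyte library 118 (-0.10, -0.04, -0.05, -0.21, -0.28 and -0.13). Under quantile normalization 9 did: Arg2 (-0.11), B2m (0.77), C3 (0.94), Cldn15 (-0.08), Fth1 (0.64), Gp1bb (-0.55), Rb1 (-0.32), Sdsl (-0.04) and Vwf (-0.56). The causes were not tested. Vim also lost its call without hepatocyte library 611 (adjusted p = 0.0579, limma). With the sample number as a replicate block 8386 genes were higher and 2190 lower. That fit ended the call of Ift20 (adjusted p = 0.0711), added Clec4g (0.048), S100a9 (4.95e-04) and Slc10a2 (0.0305), and changed no other call of a named gene. Precision is limited by 5 and 4 libraries, by depths that the table does not state, and by 2 decimals, which make values near 0.01 RPKM coarse.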

Other observations

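Some families of metabolic enzymes held members with opposite patterns. Among cytochromes P450 of families 1 to 4, 36 of 47 tested were lower in ductal cells and 8 higher (38 and 1 after rescaling). Cyp2s1, an enzyme found mainly outside the liver, was the exception by size, at 16.3, 15.1, 17.7, 14.6 and 12.01 RPKM in ductal libraries and 0.28, 0.00, 0.01 and 0.06 in hepatocytes (3.89 ± 0.14, adjusted p = 5.13e-12, limma). Of 15 aldehyde dehydrogenases 12 were lower and 3 higher on either scale, the latter led by Aldh1a2, which makes retinoic acid, at 33.2 ± 3.05 against 0.292 ± 0.474 RPKM (4.78 ± 0.33). Of 7 tested sulfotransferases 3 were lower and 2 higher (4 and 2 after rescaling), from Sult1d1 (3.19 ± 1.16 against 81.8 ± 6.45 RPKM) to Sult2b1 (22.7 ± 3.32 against 0.275 ± 0.241). All 18 tested UDP-glucuronosyltransferases fell.

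Membrane traffic genes gave a few of the widest gaps. Of 12 annexins 11 were higher and none lower (9 and 2 after rescaling). Anxa13, an annexin of polarised epithelia, was nearly even across ductal libraries at 224, 227, 236, 236 and 208 RPKM against 5.44, 0.26, 0.40 and 0.28 in hepatocytes (6.86 ± 0.36, adjusted p = 2.81e-10, limma). Rab25, a GTPase of apical recycling, measured 78.8 ± 8.39 against 0.448 ± 0.842 RPKM (5.92 ± 0.30). Of 47 tested Rab genes, however, 34 were higher and 7 lower as deposited, near the 67.1% higher over all tested genes. After rescaling 20 were higher and 21 lower. The tetraspanin Tspan8 measured 948 ± 197 against 17.9 ± 7.53 RPKM (5.71 ± 0.33), within a family of 14 in which 11 were higher and 2 lower (10 and 4 after rescaling). That count higher is not far above the 67.1%, while 6 of the 14 rose at least 4-fold, against 14.2% of all tested genes. The claudin Cldn6 measured 98.3 ± 23.9 against 0.445 ± 0.528 RPKM (6.13 ± 0.23). The collagen chaperone Serpinh1 was high in all ductal libraries at 130, 111, 132, 119 and 135 RPKM, without the excess of libraries 118 and 220 that Col1a1 had.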
